A study of Homo sapiens with 8 samples.

Results

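The nucleolar ribosome biogenesis genes are 52 protein-coding genes whose products make ribosomal RNA (rRNA), modify it, and assemble it with ribosomal proteins into subunits. They were chosen as a named list of nucleolar and preribosomal factors by a rule that reads no expression value, although the list was drawn up with earlier results of these data known, and all 52 were found among the 78691 genes of the count table. By role they comprise 5 genes of RNA polymerase I and its transcription factors, 1 gene of RNA polymerase III, 3 of the box C/D snoRNP, 5 of the box H/ACA snoRNP, 3 of abundant nucleolar proteins, 16 of small subunit factors, 16 of large subunit factors and 3 of other nucleolar factors. RNA was sequenced from 4 groups with 2 libraries each. C4-2B is a castration-resistant prostate adenocarcinoma line; its cells were transduced with lentivirus that either overexpressed MYCL or was empty (control). NCI-H660 is a neuroendocrine prostate cancer line, which carried a non-targeting shRNA (shControl) or shRNA against MYCL (MYCL knockdown). The sources describe the knockdown as adenoviral in some places and as stable in another, and the methods name both an adenoviral vector with several shRNAs and a lentiviral vector with a single shRNA, so which of these the libraries carried is not settled here. Each group is 1 line, and the control libraries carried a vector too. Only the C4-2B control labels call the replicates biological, so the p-values measure the spread between these samples, which may be technical.

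Ribosome production begins in the nucleolus, where RNA polymerase I copies the rRNA genes. Box C/D snoRNPs then methylate the transcript at sites set by their guide RNAs, box H/ACA snoRNPs convert chosen uridines to pseudouridine, and large sets of assembly factors fold and cleave the rRNA into a small and a large subunit. MYC family transcription factors bind the E-box sequence CACGTG with their partner MAX, and MYC is known to raise transcription of many nucleolar genes, several of which are textbook MYC targets. The libraries were made from poly(A) RNA, so the values below are of the messenger RNAs of these genes and not of rRNA.

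The E-box was searched in the RefSeq promoters (GRCh38.p14, 250 bases before to 50 bases after a start), of which 45 of the 52 members had an entry; NOP58, NOLC1, RRP12, RRS1, BOP1, DDX18 and POLR3G had none. CACGTG is its own reverse complement, so both strands were covered by the same search. It was found in 15 of the 45 member promoters (33.3%), against 7.4% of all 27305 promoters and 10.1% of the 11456 promoters of genes tested in C4-2B. The rule that set the list describes its members as classic MYC targets, so their share of promoters with the motif may depend on that choice. All 15 had a match within 50 bases of the start, whereas this held for 39.8% of the matching promoters of the other tested genes. The motif was also found in 35 of 128 promoters (27.3%) of other ribosome biogenesis genes, which are not members. It was in 3 of 64 promoters (4.7%) of cytoplasmic ribosomal proteins and 6 of 70 (8.6%) of mitochondrial ones. The 4 stretches below end at the base before the start and are read 5′ to 3′ on the strand of the gene, with the E-box in capitals. They are shown because the genes with and without the sequence include both members that fell and members that did not when MYCL was overexpressed. UTP20 fell most among the members and NOP10 did not pass the test, with an E-box in each, whereas HEATR1 fell and NHP2 had the highest fold change, with no CACGTG in the stretch shown or in the rest of the promoter searched.
UTP20, chr12:101280025-101280104, plus strand: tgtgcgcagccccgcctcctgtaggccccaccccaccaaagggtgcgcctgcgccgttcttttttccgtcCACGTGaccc
NOP10, chr15:34343137-34343166, minus strand: caggaaggaaattgacgaaCACGTGacgcg
HEATR1, chr1:236604517-236604596, minus strand: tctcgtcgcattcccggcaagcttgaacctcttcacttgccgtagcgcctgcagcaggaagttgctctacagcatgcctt
NHP2, chr5:178153886-178153965, minus strand: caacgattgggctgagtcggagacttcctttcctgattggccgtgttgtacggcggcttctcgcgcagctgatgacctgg

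The targeted gene followed the labels in all libraries. MYCL had 371 and 320 counts in the C4-2B controls and 65524 and 70253 with overexpression (log2 fold change 8.26 ± 0.12 (SE), adjusted p = 3.91e-09). In NCI-H660 it had 1863 and 1602 counts with shControl and 165 and 198 after knockdown (log2 fold change -3.06 ± 0.15 (SE), adjusted p = 4.29e-09). Library totals ranged from 15177058 to 32344150 counts. The luminal markers KLK3 and FOLH1 were listed at 0 TPM in every NCI-H660 library and at 256 TPM or more in every C4-2B library. All 8 luminal markers summed to 122 to 146 TPM with shControl and 117 to 118 TPM after knockdown in NCI-H660. In C4-2B they summed to 2370 TPM in the controls and 1550 to 1690 TPM with MYCL. Between control libraries 7 of these were called lower in NCI-H660, and all 8 neuroendocrine markers were called higher. Of all genes 34.2% were lower and 37.4% higher. MYC, the paralog best known for driving nucleolar genes, was at 145 and 141 CPM in the controls and 96.4 and 114 CPM with MYCL in C4-2B (log2 fold change -0.44 ± 0.09 (SE), adjusted p = 0.00481); without MYCL replicate 2 its log2 fold change was -0.569 and called. In NCI-H660 MYC was at 13.8 and 18.4 CPM with shControl and 30.6 and 24.98 CPM after knockdown and rose (log2 fold change 0.78 ± 0.16 (SE), adjusted p = 0.00198).

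Overexpression of MYCL in C4-2B was accompanied by lower mRNA levels of the nucleolar genes. Of the 52 members, 16 fell and 0 rose at an adjusted p under 0.05 and a log2 fold change of at least 0.5 in size. The 16 were UTP20, NCL, MRTO4, POLR1A, NOP2, DKC1, NOP56, UBTF, BYSL, GRWD1, HEATR1, TSR1, NOP58, PPAN, LYAR and NOP14. Over the 16866 genes tested (edgeR, quasi-likelihood; adjusted by Benjamini-Hochberg), 8.12% fell and 11.8% rose by the same rule. At an adjusted p under 0.05 and any size of change, 38 members were lower and 1 was higher, against 17.4% lower and 17.6% higher over all genes. At an unadjusted p under 0.05 edgeR placed 39 members lower and 1 higher, and DESeq2 also called 16 lower and 0 higher. The members' median log2 fold change was -0.38, with 47 of 52 negative, beside a median of -0.002 over all genes tested. In 42 members both MYCL libraries lay below both control libraries, in 1 they lay above, and in 9 they overlapped, compared with 34.7% of all genes below and 34.5% above. Together the members took 0.934% and 0.885% of the counts in the controls and 0.655% and 0.686% with MYCL. NOP14 and PPAN were not called without MYCL replicate 1, and the other 14 were called with any 1 library left out. The smallest p of an exact permutation test on 2 and 2 libraries is 0.33, so the calls depend on edgeR's pooling of the spread over genes. In these bulk libraries fewer cells with high nucleolar expression and less mRNA per cell cannot be told apart. Of 8 proliferation markers, 7 also fell in C4-2B (median log2 fold change -0.72), among them MCM5 (-1.59) and MKI67 (-0.56), while TOP2A was at 0.11 (adjusted p = 0.254); their summed level was 647 to 680 TPM in the controls and 353 to 365 TPM with MYCL. Of the 8 luminal markers 2 fell and 0 rose (median log2 fold change -0.30), with 6 lower and 1 higher at any size. KLK3 fell (-0.52) and FOLH1 was at -0.28 (adjusted p = 0.0135). Of 8 markers of other cell types, COL1A1 (0.74) and ACTA2 (3.22) rose and 6, with at most 9 counts in any library, could not be tested, PTPRC and KRT5 among them at 0 in all 4 C4-2B libraries; the list summed to 3.14 to 3.19 TPM in the controls and 6.24 to 6.37 TPM with MYCL. The part of these markers in the lower nucleolar mRNA was not tested.

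**Figure D1:**
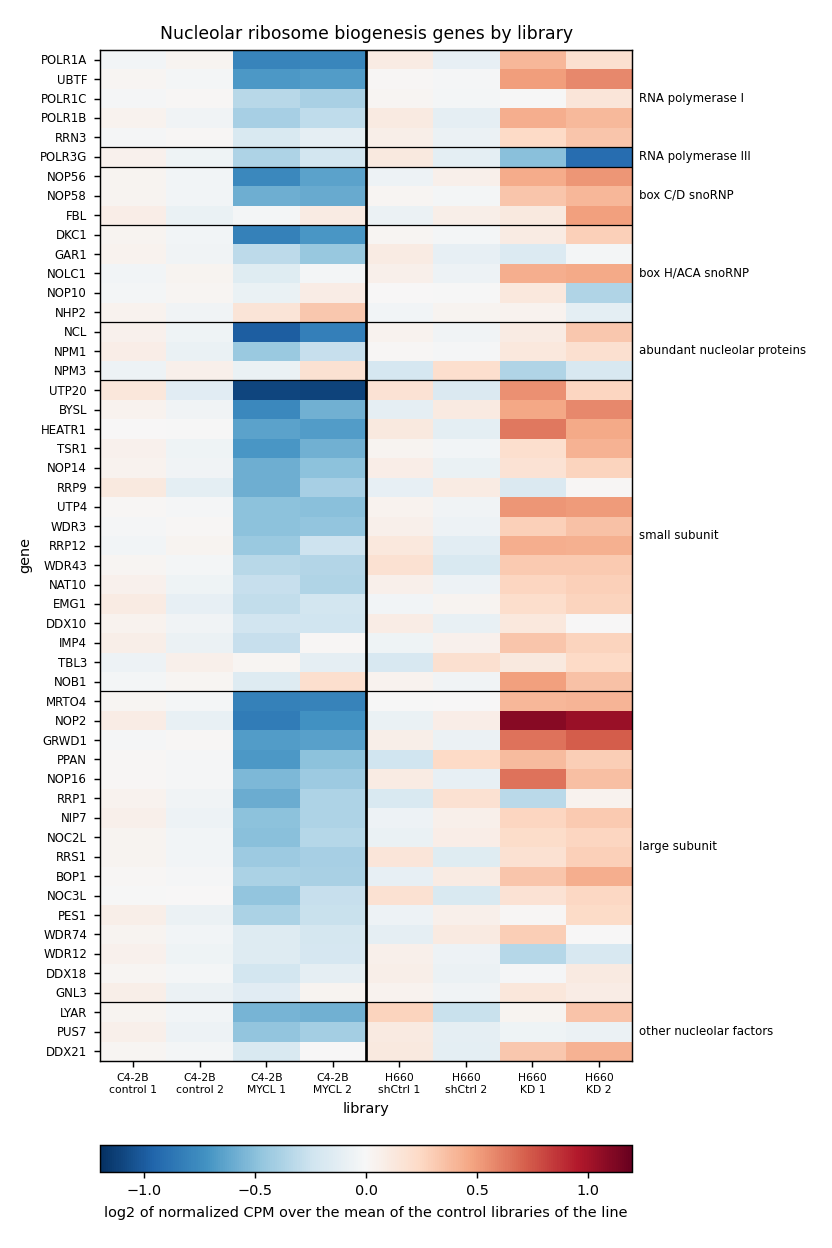
Heat map of the 52 members (rows, grouped by role and ordered by the fold change in C4-2B) in the 8 libraries (columns; shCtrl is shControl and KD is MYCL knockdown). Colour is the log2 of normalized CPM over the mean of the control libraries of the same line. Both C4-2B MYCL libraries lie below both controls for 42 members, and both knockdown libraries lie above both controls for 35.

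Transcription of rRNA genes. All 5 members of this role had negative fold changes in C4-2B, and 2 of them fell. POLR1A, the largest subunit of RNA polymerase I, measured 89.5 and 93.5 CPM in the controls and 52.8 and 53.1 CPM with MYCL, where CPM are counts relative to the TMM-scaled library total of the line. UBTF, which opens rRNA gene chromatin and recruits the polymerase, measured 97.5 and 94.7 CPM in the controls and 59.5 and 60.4 CPM with MYCL. The values of the libraries did not overlap for either gene, and POLR1A fell to 57.9% of the control level (log2 fold change -0.79 ± 0.07 (SE), adjusted p = 0.000139) and UBTF to 62.4% (log2 fold change -0.68 ± 0.07 (SE), adjusted p = 0.000236). POLR1C, a subunit shared with RNA polymerase III, was lower without reaching the size set for a call, at 50.6 and 51.9 CPM in the controls and 40.6 and 39.1 CPM with MYCL (log2 fold change -0.36 ± 0.08 (SE), adjusted p = 0.00767). RRN3, which makes RNA polymerase I competent for initiation, was at 122 and 125 CPM in the controls and 109 and 114 CPM with MYCL (log2 fold change -0.14 ± 0.07 (SE), adjusted p = 0.15). Its counts in rows named as RRN3 pseudogenes came to 3.31% of its own. POLR1B, the second-largest subunit, had a log2 fold change of -0.35 (adjusted p = 0.00835).

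Box C/D snoRNP. The members of this role were split. NOP56 measured 207 and 197 CPM in the controls and 118 and 129.7 CPM with MYCL, and FBL, the methyltransferase fibrillarin, measured 325 and 292 CPM in the controls and 303 and 330.1 CPM with MYCL. Both MYCL libraries of NOP56 were below both controls, and those of FBL overlapped with them. NOP56 fell (log2 fold change -0.70 ± 0.08 (SE), adjusted p = 0.00025), as did its partner NOP58 (log2 fold change -0.59 ± 0.07 (SE), adjusted p = 0.00036), while the fold change of FBL was 0.04 with a 95% confidence interval of -0.15 to 0.22.

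Box H/ACA snoRNP. DKC1 (dyskerin), the pseudouridine synthase, was the only 1 of 5 members that fell. It measured 220.2 and 209.6 CPM in the controls and 122 and 133 CPM with MYCL (log2 fold change -0.75 ± 0.07 (SE), adjusted p = 0.00017). Of its small structural partners, NHP2 and NOP10 were not lower and GAR1 was lower by less than the size set for a call. NHP2 was at 116 and 109 CPM in the controls and 125 and 141 CPM with MYCL, the sole member higher at an adjusted p under 0.05 and any size (log2 fold change 0.24 ± 0.08 (SE), adjusted p = 0.0485), and NOP10 was at 74.5 and 77.2 CPM in the controls and 71.5 and 80.9 CPM with MYCL (log2 fold change 0.01 ± 0.08 (SE), adjusted p = 0.959). Both MYCL libraries of NHP2 were above both controls, and those of NOP10 lay around them. NOLC1, a chaperone of snoRNPs, was at 369 and 389 CPM in the controls and 343 and 373 CPM with MYCL (log2 fold change -0.08 ± 0.07 (SE), adjusted p = 0.424), and GAR1 had a log2 fold change of -0.38 (adjusted p = 0.0179). NHP2 shares 28.0% of its exon bases with RMND5B on the opposite strand; whether the counting used strand is not given in the sources used here.

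Abundant nucleolar proteins. NCL (nucleolin), which binds rRNA and its chromatin, measured 1587 and 1470.0 CPM in the controls and 768 and 864 CPM with MYCL, and fell to 53.4% of the control level (log2 fold change -0.91 ± 0.08 (SE), adjusted p = 0.000109). NPM1 (nucleophosmin), the most abundant member by TPM, measured 2082 and 1867 CPM in the controls and 1452 and 1625 CPM with MYCL (log2 fold change -0.36 ± 0.08 (SE), adjusted p = 0.0102). NPM3, a relative of NPM1, measured 44.9 and 48.6 CPM in the controls and 44.1 and 52.9 CPM with MYCL (log2 fold change 0.05 ± 0.10 (SE), adjusted p = 0.716). The order of change in this role was thus from a called fall of NCL, through a smaller difference for NPM1 whose libraries did not overlap, to a value near 0 for NPM3. NPM1 has 49 annotated pseudogene rows, which held 0.599% as many counts as NPM1 itself.

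Small subunit factors. Of the 16, 5 fell, and 13 were lower at any size. UTP20, a scaffold of the small subunit processome, showed the largest fall among the members, at 77.5 and 64.4 CPM in the controls and 32.9 and 32.8 CPM with MYCL, which is 46.2% of the control level (log2 fold change -1.11 ± 0.10 (SE), adjusted p = 0.000119). HEATR1, needed for early rRNA processing, measured 138 and 137 CPM in the controls and 88.2 and 86.8 CPM with MYCL (log2 fold change -0.66 ± 0.07 (SE), adjusted p = 0.000229). In both genes the MYCL libraries lay far below the controls and close to each other. RRP9, a U3 snoRNP protein, was at 34.2 and 28.9 CPM in the controls and 20.99 and 23.8 CPM with MYCL (log2 fold change -0.499 ± 0.12 (SE), adjusted p = 0.00941), just under the size set for a call. EMG1, a methyltransferase of small subunit rRNA, was at 74.5 and 65.2 CPM in the controls and 56.7 and 59.6 CPM with MYCL (log2 fold change -0.27 ± 0.09 (SE), adjusted p = 0.045), and shares 55.5% of its exon bases with LPCAT3 on the opposite strand. NOB1, the endonuclease that makes the mature end of small subunit rRNA, was at 68.2 and 70.4 CPM in the controls and 62.1 and 79.7 CPM with MYCL (log2 fold change 0.03 ± 0.11 (SE), adjusted p = 0.847), with MYCL libraries on either side of the controls. The other 3 that fell were BYSL (-0.68), TSR1 (-0.64) and NOP14 (-0.54) on the log2 scale. Of the rest, UTP4 (-0.499) and WDR3 (-0.48) were next in size, RRP12, WDR43, NAT10 and DDX10 were between -0.35 and -0.23 with adjusted p under the threshold, and IMP4 (-0.13) and TBL3 (-0.04) did not pass at any size. Some genes that fell also share exon bases with a gene on the opposite strand. The shares were 23.1% for HEATR1 (LGALS8), 23.9% for TSR1 (SRR) and 20.7% for NOP14 (NOP14-AS1).

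Large subunit factors. All 16 fold changes were negative and 4 fell, with 12 lower at any size. MRTO4, which holds the place of the ribosomal stalk in the preribosome, measured 31.9 and 30.9 CPM in the controls and 17.9 and 18.1 CPM with MYCL (log2 fold change -0.81 ± 0.09 (SE), adjusted p = 0.00033). NOP2, an rRNA cytosine methyltransferase, measured 117 and 103 CPM in the controls and 61.4 and 66.7 CPM with MYCL (log2 fold change -0.79 ± 0.09 (SE), adjusted p = 0.000287). They fell to 57.2% and 58% of the control level, with no overlap between libraries. GRWD1 (-0.66) and PPAN (-0.58) were the other called genes. PPAN shares 47.6% of its exon bases with the readthrough gene PPAN-P2RY11, which held between 0 and 48 counts in any library, and NOP2 shares 54.4% with ENSG00000285238, which held between 0 and 19. WDR12, of the complex it forms with PES1 and BOP1, was at 90.4 and 84.4 CPM in the controls and 78.3 and 76.1 CPM with MYCL (log2 fold change -0.18 ± 0.07 (SE), adjusted p = 0.0941). GNL3 (nucleostemin), a nucleolar GTPase, was at 308 and 281 CPM in the controls and 268 and 301 CPM with MYCL (log2 fold change -0.05 ± 0.08 (SE), adjusted p = 0.669). Neither passed the test, and the GNL3 libraries overlapped. NOP16, RRP1, NIP7, NOC2L, RRS1, BOP1, NOC3L and PES1 lay between -0.48 and -0.33 and passed at any size, whereas WDR74 (-0.18) and DDX18 (-0.17) did not.

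Other factors. LYAR, a nucleolar zinc finger protein, fell, at 46.3 and 43.9 CPM in the controls and 30.7 and 30.3 CPM with MYCL (log2 fold change -0.56 ± 0.08 (SE), adjusted p = 0.00117). PUS7, a pseudouridine synthase that works without a guide RNA, was at 70.8 and 64.9 CPM in the controls and 48.8 and 50.96 CPM with MYCL (log2 fold change -0.45 ± 0.08 (SE), adjusted p = 0.00327), and the helicase DDX21 was at 534 and 516 CPM in the controls and 462 and 528 CPM with MYCL (log2 fold change -0.08 ± 0.08 (SE), adjusted p = 0.459). POLR3G, the subunit that defines the stem cell form of RNA polymerase III, was at 36.8 and 34.5 CPM in the controls and 27.5 and 30.5 CPM with MYCL (log2 fold change -0.30 ± 0.09 (SE), adjusted p = 0.0359). Its libraries did not overlap, and the value was under the size set for a call. Its paralog POLR3GL, which replaces it in most differentiated cells, rose, at 10.5 and 9.91 CPM in the controls and 18.6 and 17.9 CPM with MYCL (log2 fold change 0.83 ± 0.11 (SE), adjusted p = 0.000797).

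Members with and without an E-box had close medians in C4-2B. The 15 with CACGTG had a median log2 fold change of -0.45 (range -1.11 to 0.039) and included 5 that fell, and the 30 without it had a median of -0.40 (range -0.905 to 0.241) and included 10 that fell. The median GC content of the member promoters was 64%, against 58.3% of all promoters.

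Among other genes of the pathway the pattern was similar in direction and smaller. Of 153 other ribosome biogenesis genes tested, 26 fell and 2 rose in C4-2B, where 8.12% of all genes fell and 11.8% rose, with a median log2 fold change of -0.28. The fall was led by TCOF1, the Treacher Collins protein that couples rRNA transcription to modification (-0.93), DHX37 (-0.89) and FTSJ3 (-0.88), and the 2 that rose were POLR3GL and NOP53 (0.51). The median of the 10 other RNA polymerase I genes was -0.09, with 3 lower and 1 higher at any size. The structural proteins of the ribosome had positive fold changes in 79 of 80 cytoplasmic ribosomal protein genes, with a median of 0.39. Of the 80, 10 rose and 0 fell, a share near the 11.8% of all genes that rose, and 73 were higher at any size, against 17.6% of all genes. The number that rose was 38 without MYCL replicate 1 and 2 without MYCL replicate 2, and limma called 2, 2 and 0 on log2(TPM + 1), log2(TPM + 0.1) and unfiltered log2(TPM + 1). RPS21 (0.69), RPL12 (0.66) and RPL18 (0.59) were highest; at an unadjusted p under 0.05 edgeR placed 74 higher and 0 lower, and DESeq2 called 10 and 0. The 78 mitochondrial ribosomal protein genes had a median of -0.14 and 1 fell (MRPL50, -0.65). Direction did not depend on the scale: on log2(TPM + 1) all genes together had a median of -0.142, and the medians were -0.52 for the members and 0.25 for the cytoplasmic ribosomal proteins.

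**Figure D2:**
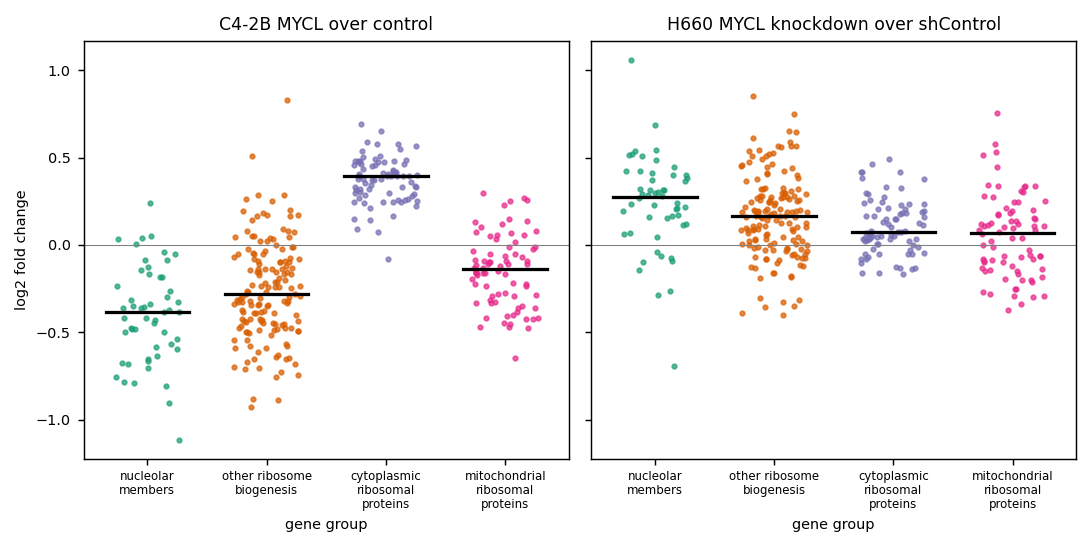
Log2 fold changes (vertical axis) of each tested gene (points) in 4 gene groups, with the median as a black bar; C4-2B MYCL over control on the left and NCI-H660 MYCL knockdown over shControl on the right. In C4-2B the members' median is -0.38 and that of cytoplasmic ribosomal proteins 0.39, and in NCI-H660 these are 0.28 and 0.07.

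Knockdown of MYCL in NCI-H660, which lowers MYCL where C4-2B raised it, was accompanied by higher nucleolar mRNA. Of the 52 members 7 rose and 0 fell, namely NOP2, GRWD1, HEATR1, UBTF, UTP4, BYSL and NOP16. By the same rule 7.18% of the 16980 genes tested rose and 8.99% fell. At an adjusted p under 0.05 and any size, 16 members were higher and 0 lower, against 12.0% and 12.7% of all genes. At an unadjusted p under 0.05 edgeR placed 28 higher and 1 lower, and DESeq2 called 6 higher and 0 lower. The median log2 fold change was 0.28, with 43 of 52 positive, beside a median of -0.003 over all genes. Both knockdown libraries lay above both shControl libraries for 35 members, below for 2 and overlapping for 15, compared with 31.1% of all genes above and 32% below. The members' share of counts was 0.565% and 0.546% with shControl and 0.637% and 0.677% after knockdown. NOP2, GRWD1 and UBTF were called with any 1 library left out, BYSL was lost without shControl replicate 1 or knockdown replicate 2, HEATR1 and NOP16 without shControl replicate 2 or knockdown replicate 1, and UTP4 without shControl replicate 2. The count became 11 without shControl replicate 1, and on unfiltered log2(TPM + 1) limma called 0 members, 0 higher genes of all and 18 members higher at an unadjusted p under 0.05. Of the proliferation markers only CCNB1 fell (-1.12) and the median of the 8 was -0.01. Of the 8 luminal markers 3 could be tested, and 1 rose and 0 fell, with log2 fold changes from -1.498 to 2.457. Of the 8 neuroendocrine markers 2 fell and 0 rose (median log2 fold change -0.161), with 3 lower and 2 higher at any size. The part of these markers in the higher nucleolar mRNA was not tested.

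NOP2 rose most. It measured 18.1 and 20.1 CPM with shControl and 40.7 and 39.2 CPM after knockdown, which is 209% of the shControl level (log2 fold change 1.06 ± 0.13 (SE), adjusted p = 2.97e-05). GRWD1, a histone-binding nucleolar protein, measured 18.7 and 16.9 CPM with shControl and 27.9 and 29.5 CPM after knockdown (log2 fold change 0.69 ± 0.13 (SE), adjusted p = 0.00137). In both genes the knockdown libraries were far above the shControl libraries and close to each other. WDR12, at 65.4 and 60.5 CPM with shControl and 49.7 and 55.2 CPM after knockdown, had the lowest value among large subunit factors (log2 fold change -0.26 ± 0.11 (SE), adjusted p = 0.0995). GNL3 was at 219.7 and 208 CPM with shControl and 236 and 228 CPM after knockdown (log2 fold change 0.12 ± 0.10 (SE), adjusted p = 0.44), and MRTO4 was at 41.9 and 42.3 CPM with shControl and 55.4 and 55.6 CPM after knockdown (log2 fold change 0.40 ± 0.11 (SE), adjusted p = 0.0155), below the size set for a call. NOP16 rose (0.51, adjusted p = 0.0301), a call absent with DESeq2. The remaining 10 of the role lay between -0.14 (RRP1) and 0.38 (BOP1), and of these BOP1 alone passed at any size (adjusted p = 0.0237).

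In the small subunit role 3 genes rose. HEATR1 measured 92.99 and 79.5 CPM with shControl and 134 and 118 CPM after knockdown (log2 fold change 0.55 ± 0.11 (SE), adjusted p = 0.00266), with BYSL (0.52) and UTP4 (0.52) the other 2. UTP20 was at 60.1 and 47.2 CPM with shControl and 77.7 and 63.8 CPM after knockdown (log2 fold change 0.40 ± 0.13 (SE), adjusted p = 0.038). The lower knockdown library of UTP20 was only a little above the higher shControl library. NOB1 was at 11.03 and 10.4 CPM with shControl and 15.01 and 13.7 CPM after knockdown (log2 fold change 0.42 ± 0.16 (SE), adjusted p = 0.0639) and EMG1 at 27.7 and 29.1 CPM with shControl and 32.8 and 34.2 CPM after knockdown (log2 fold change 0.24 ± 0.12 (SE), adjusted p = 0.166). RRP9, with overlapping libraries, was at 18.00 and 20.7 CPM with shControl and 17.2 and 19.6 CPM after knockdown (log2 fold change -0.08 ± 0.14 (SE), adjusted p = 0.737) and was the sole negative value of the role. The other 9 ranged from 0.06 (DDX10) to 0.42 (RRP12), and RRP12 passed at any size (adjusted p = 0.0348).

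UBTF was the called gene of RNA polymerase I transcription. It measured 163 and 159 CPM with shControl and 228 and 239.9 CPM after knockdown (log2 fold change 0.54 ± 0.10 (SE), adjusted p = 0.00134). POLR1A measured 53.3 and 46.2 CPM with shControl and 65.3 and 56.7 CPM after knockdown (log2 fold change 0.29 ± 0.12 (SE), adjusted p = 0.0847), RRN3 measured 89.2 and 81.2 CPM with shControl and 100.4 and 107 CPM after knockdown (log2 fold change 0.29 ± 0.11 (SE), adjusted p = 0.0595) and POLR1C measured 28.4 and 27.4 CPM with shControl and 27.8 and 30.8 CPM after knockdown (log2 fold change 0.07 ± 0.12 (SE), adjusted p = 0.721). The libraries overlapped for POLR1C and did not for POLR1A and RRN3, yet none of these passed, and POLR1B passed at any size (0.41, adjusted p = 0.0259). Of the 10 other RNA polymerase I genes 3 rose, POLR1E (0.75), POLR1F (0.61) and TAF1D (0.54), and their median was 0.35.

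The snoRNP genes were not called. NOP56 measured 182 and 198 CPM with shControl and 258 and 274 CPM after knockdown (log2 fold change 0.48 ± 0.10 (SE), adjusted p = 0.0032), close to the size set for a call, and NOP58 was at 0.36 (adjusted p = 0.016). FBL measured 100.1 and 111 CPM with shControl and 114 and 148 CPM after knockdown (log2 fold change 0.31 ± 0.12 (SE), adjusted p = 0.0764). All 3 members of the box C/D snoRNP role were thus positive, and in NOP56 and FBL both knockdown libraries were above both shControl libraries. In the box H/ACA snoRNP, NOLC1 measured 177 and 163 CPM with shControl and 229.6 and 232 CPM after knockdown (log2 fold change 0.45 ± 0.10 (SE), adjusted p = 0.00539). DKC1 measured 282 and 273 CPM with shControl and 298 and 337 CPM after knockdown (log2 fold change 0.20 ± 0.11 (SE), adjusted p = 0.195). NHP2 was at 55.2 and 58.2 CPM with shControl and 58.2 and 52.1 CPM after knockdown (log2 fold change -0.04 ± 0.11 (SE), adjusted p = 0.83) and NOP10 at 17.9 and 17.8 CPM with shControl and 19.4 and 13.9 CPM after knockdown (log2 fold change -0.10 ± 0.16 (SE), adjusted p = 0.699). Both small partners had overlapping libraries and values near 0, and GAR1 was at -0.09 (adjusted p = 0.68).

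Among abundant proteins, NCL was at 1684 and 1585 CPM with shControl and 1750.0 and 2039 CPM after knockdown (log2 fold change 0.21 ± 0.11 (SE), adjusted p = 0.176), NPM1 at 929 and 916 CPM with shControl and 1007 and 1057 CPM after knockdown (log2 fold change 0.16 ± 0.10 (SE), adjusted p = 0.271) and NPM3 at 5.01 and 6.6 CPM with shControl and 4.48 and 5.05 CPM after knockdown (log2 fold change -0.29 ± 0.25 (SE), adjusted p = 0.427). The first pair did not overlap between groups but did not pass, and NPM3, at few CPM, overlapped. DDX21 measured 284 and 243 CPM with shControl and 329 and 352 CPM after knockdown (log2 fold change 0.37 ± 0.11 (SE), adjusted p = 0.0217), LYAR measured 26.5 and 18.3 CPM with shControl and 22.5 and 27.98 CPM after knockdown (log2 fold change 0.17 ± 0.17 (SE), adjusted p = 0.483) and PUS7 measured 30.1 and 25.9 CPM with shControl and 26.9 and 26.6 CPM after knockdown (log2 fold change -0.07 ± 0.13 (SE), adjusted p = 0.753). LYAR had the widest spread between shControl libraries of these genes. POLR3G was the lowest member, with 53 and 49 counts under shControl and 31 and 24 after knockdown (log2 fold change -0.69 ± 0.36 (SE), adjusted p = 0.182). Its libraries did not overlap in counts, and the value did not pass at such counts. On TPM they did overlap, at 1.766 and 2.015 TPM with shControl and 2.128 and 0.8077 TPM after knockdown. POLR3GL was at -0.35 (adjusted p = 0.0844).

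Of the 153 other ribosome biogenesis genes 16 rose and 0 fell in NCI-H660, where 7.18% of all genes rose, with a median of 0.17; edgeR placed 47 higher and 5 lower at an unadjusted p under 0.05, and DESeq2 called 13 and 0. NOL6 (0.85), POLR1E and RRP7A (0.65), which act in rRNA transcription and early small subunit assembly, were the highest. Cytoplasmic ribosomal proteins had a median of 0.07 with 0 called in either direction by edgeR and by DESeq2 (16 higher and 0 lower at an unadjusted p under 0.05 in edgeR). Of the 78 mitochondrial ribosomal proteins 4 rose, a smaller share than over all genes, and MRPL58 (0.75) was highest. Members with an E-box had a median of 0.298 and 3 called genes, and those without 0.238 and 4.

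The 2 perturbations share no libraries, so their results can be set side by side. In 41 of the 52 members the fold change was negative with MYCL overexpression and positive with MYCL knockdown, against 29.1% of all genes tested in both lines. The members that fell in C4-2B and rose in NCI-H660 were NOP2, GRWD1, UBTF, BYSL and HEATR1. These 5 are 31.2% of the 16 that fell and 71.4% of the 7 that rose, and 0.957% of the 14212 genes tested in both lines met both calls. On log2(TPM + 1) and log2(TPM + 0.1) limma did not call UBTF and HEATR1 in NCI-H660. On unfiltered log2(TPM + 1) it called none of the 5 there. Across members the Spearman correlation of the fold changes was -0.43 (n = 52 genes), and across all genes -0.14, given as a description because genes measured in the same libraries are not independent.

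**Figure D3:**
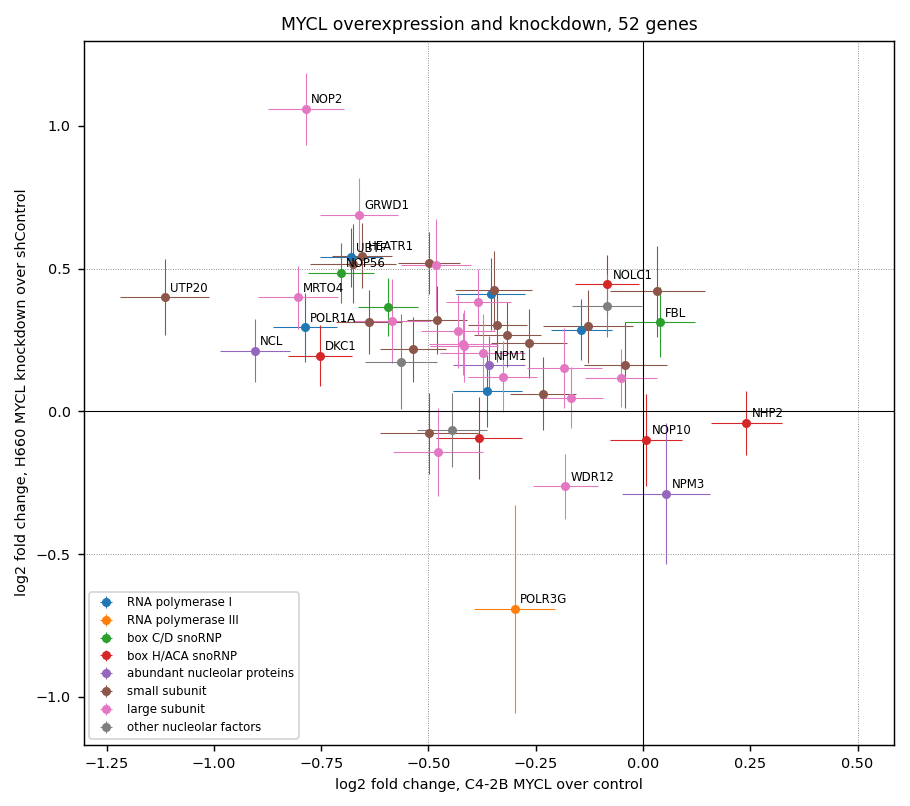
Log2 fold change of each member with MYCL overexpression in C4-2B (horizontal axis) and with MYCL knockdown in NCI-H660 (vertical axis), with bars of 1 SE, coloured by role; dotted lines mark 0.5 in size. 41 of 52 members lie to the upper left of both zero lines, and NOP2 is highest at 1.06.

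The change with high against low MYCL was compared between the 2 lines in a fit of all 8 libraries. The lines also differed in the kind of perturbation, overexpression against shRNA, and in the size of the MYCL change. These cannot be told apart from the line. A negative difference means that the level with high MYCL, relative to low MYCL, was lower in C4-2B than in NCI-H660. Of the members 6 had a negative difference that passed the test and 0 a positive one, against 8.33% and 9.59% of the 19605 genes tested. The 6 of 52 are a share near that of all genes. At an unadjusted p under 0.05 edgeR placed 13 lower and 2 higher, and DESeq2 called 4 lower and 0 higher. The median difference was -0.16, beside 0.003 over all genes, and was -0.095 without C4-2B MYCL replicate 1. The differences were -0.72 for UTP20, -0.69 for NCL, -0.58 for RRP9, -0.56 for DKC1 and -0.51 for PUS7, each with a lower level under high MYCL in C4-2B. For UTP20, NCL and DKC1 the level was lower under high MYCL in both lines by sign, but in NCI-H660 the fold changes of NCL and DKC1 did not pass. Leaving out 1 library moved the number from 6 to 3 without C4-2B control replicate 1, to 2 without C4-2B MYCL replicate 1 and to 3 without C4-2B MYCL replicate 2; NCL was called in each of these fits. POLR3G had fold changes of -0.30 with overexpression and -0.69 with knockdown and a difference of -0.99 (adjusted p = 0.0172). RRP9 and PUS7 were also negative in both comparisons. NOP2 and GRWD1, the genes with the largest rise after knockdown, had differences of 0.27 and 0.02 that did not pass. Of the cytoplasmic ribosomal proteins 33 had a positive difference and 0 a negative one, with a median of 0.46 (62 and 0 at an unadjusted p under 0.05; 34 and 0 called by DESeq2). The number was 18 without knockdown replicate 1, 20 without shControl replicate 1 and 21 without C4-2B MYCL replicate 2, and limma called 13, 10 and 4 on the 3 TPM scales.

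The control libraries of the lines were compared to place the members' starting levels. This comparison shares its control libraries with those above, so no relation between them is drawn. Levels between genes are in TPM, which are corrected for gene length. NPM1 was the most abundant member, at 2306 and 2091 TPM in the C4-2B control libraries and 1472 and 1356 TPM in the NCI-H660 shControl libraries, followed by NCL at 879 and 823 TPM in the C4-2B control libraries and 1337 and 1151 TPM in the NCI-H660 shControl libraries and FBL at 525 and 478 TPM in the C4-2B control libraries and 229 and 236 TPM in the NCI-H660 shControl libraries. In C4-2B the steps between these genes exceeded the differences between libraries, whereas in NCI-H660 NPM1 and NCL lay within the spread of their libraries. The lowest members were UTP20 (9.53 ± 1.2 TPM, SD, n = 2) and POLR1A (9.90 ± 0.43 TPM) in the C4-2B control, and POLR3G (1.89 ± 0.18 TPM) and RRP12 (6.83 ± 1.15 TPM) in the NCI-H660 shControl. The median member was at 50.03 and 49.76 TPM in the C4-2B control, 35.01 and 32.45 TPM with MYCL, 31.17 and 30.05 TPM in the NCI-H660 shControl and 33.4 and 37.04 TPM after knockdown.

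**Figure D4:**
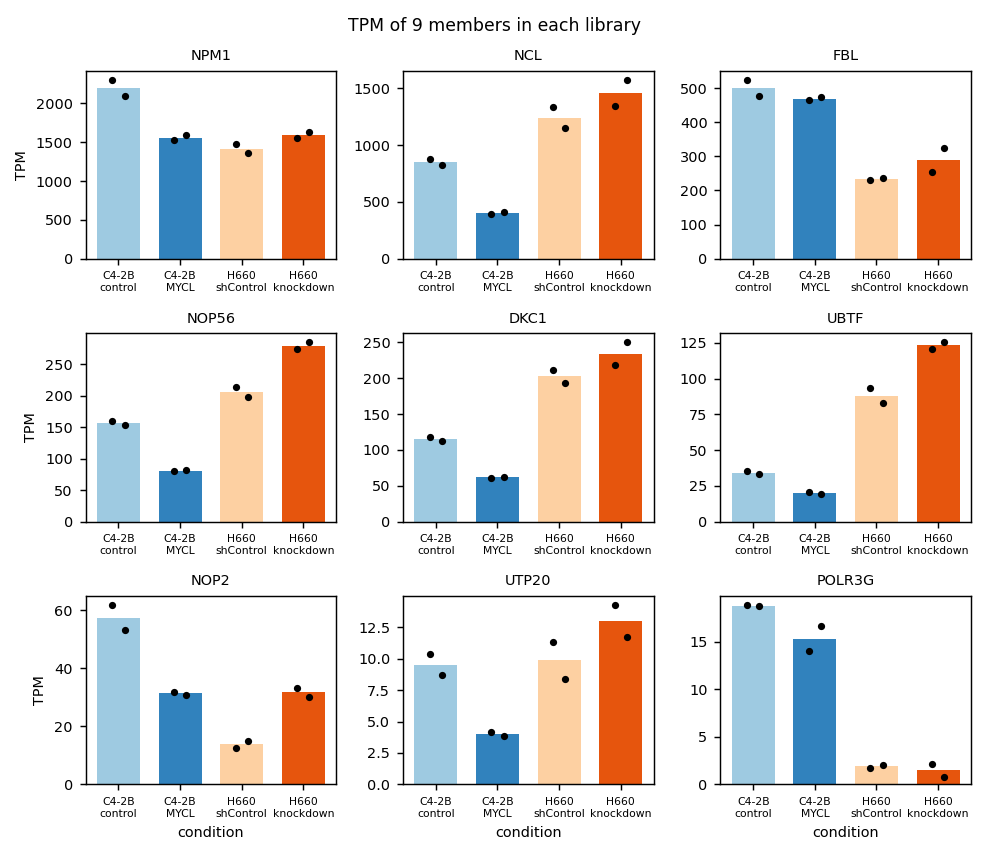
TPM (vertical axis, from 0) of 9 members in the 4 groups, with bars for the mean and points for the 2 libraries. Between the control groups NCL, NOP56, DKC1 and UBTF are higher in NCI-H660 than in C4-2B on this scale, NPM1, FBL, NOP2 and POLR3G are lower, and UTP20 overlaps.

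In the fit of the 4 control libraries 45 members were lower in NCI-H660 and 1, UBTF (0.57, adjusted p = 5.55e-05), was higher, with 34.2% of the 18748 genes tested lower and 37.4% higher. The median log2 difference was -1.16, beside 0.04 over all genes. POLR3G differed most (-3.79), then NPM3 (-3.17), NOB1 (-2.86) and NOP2 (-2.70). NCL (-0.07, adjusted p = 0.438) and NOP56 (-0.26, adjusted p = 0.016) were among the 6 without a call. POLR3GL was higher in NCI-H660 (1.91), opposite to its paralog. Part of these values depends on the scale. On log2(TPM + 1) the median over all genes was 0.568, and limma gave a members' median of -0.532, called 27 lower and 4 higher, and placed NCL at 0.544 and UTP20 at 0.035; relative to the median of all genes NCL was then close to 0 and UTP20 lower. Cytoplasmic ribosomal proteins were lower in NCI-H660 on both scales, with a median of -1.98 on counts and -1.35 on log2(TPM + 1). Mitochondrial transcripts took 9.63% to 10.7% of the counts in C4-2B and 3.50% to 3.83% in NCI-H660; their part in this difference was not tested.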

How the data were processed

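The authors deposited gene-level estimated counts (expected counts, 34.4% of non-zero values not whole) and TPM values from poly(A)-selected paired-end RNA-seq; the build is hg38 per the submitters' notes, and the aligner and counting tool are not given in the sources used here. The deposited TPM table holds 65535 genes, all members included. Counts were rounded and normalized by TMM. Each comparison was fitted over the whole table in edgeR 4.0.16 under R 4.3.3 (filterByExpr, quasi-likelihood test, Benjamini-Hochberg adjustment), with calls at an adjusted p under 0.05 and a log2 fold change of at least 0.5. The fits were tested on simulated data. Replicates of C4-2B had a biological coefficient of variation of 0.083 and those of NCI-H660 of 0.097. The members and gene lists were chosen with earlier results of these data known. Per-library values are given, within each role, for the members with the lowest and highest fold change in each line and the highest mean TPM, and other pathway genes are named for up to 3 at each end of the called genes of a list. Alternatives were DESeq2 1.42.0, other normalization and filters, 1 fit of all groups, a replicate block, limma 3.58.1 on log2 TPM, other fold minima, added pseudogene counts and leaving out each library. Exon overlaps are from GENCODE 44.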

Additional observations from a re-analysis of the deposited data

Results flagged for a closer look

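The change with high against low MYCL differed between the lines for 6 members, by the test of the difference in a fit of all 8 libraries (edgeR quasi-likelihood test, Benjamini-Hochberg adjustment). By the same rule 8.33% of the 19605 genes tested had a negative difference and 9.59% a positive one, and DESeq2 called 4 members. The 6 of 52 members are thus a share near that of all genes. The lines also differed in the kind of perturbation and in the size of the MYCL change, which cannot be told apart from the line. The difference in log2 fold change, C4-2B minus NCI-H660, was -0.99 for POLR3G (adjusted p = 0.0172), -0.72 for UTP20 (adjusted p = 0.0184), -0.69 for NCL (adjusted p = 0.00398), -0.58 for RRP9 (adjusted p = 0.0468), -0.56 for DKC1 (adjusted p = 0.00809) and -0.51 for PUS7 (adjusted p = 0.0281). NCL was called in every fit with 1 library left out. The other 5 were each lost in at least 1 such fit, and UTP20, RRP9 and PUS7 were lost in most of these fits. POLR3G was lost without shControl replicate 1 or knockdown replicate 2, and DKC1 without C4-2B MYCL replicate 1 or knockdown replicate 1. UTP20, PUS7 and POLR3G were not called on any of the 3 TPM scales, and RRP9 and PUS7 were not called by DESeq2. POLR3G rests on 24 to 53 counts per NCI-H660 library.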

How the results depend on the processing

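Under the alternatives run, no count or median of the members and no called member changed direction in the C4-2B and NCI-H660 comparisons. In C4-2B, members called lower numbered 28, 29 and 27 on log2(TPM + 1), log2(TPM + 0.1) and unfiltered log2(TPM + 1). Their medians were -0.52, -0.54 and -0.52, beside -0.142, -0.162 and -0.028 over all genes. MYC was then called on the filtered scales (-0.596 and -0.603). Shares of all genes called on TPM are not given, except for NCI-H660 without a filter. The numbers called on TPM thus cannot be set beside the shares given for the count fits. Without a minimum fold change there were 38 lower and 1 higher in C4-2B, and MYC (-0.444) was called. With a minimum of 1 there was 1 lower. Leaving out each library gave 14 to 21 lower, 0 higher, medians of -0.448 to -0.361 and MYC at -0.569 to -0.321. In NCI-H660, members called higher numbered 4, 4 and 0 on the 3 TPM scales, 16 without a minimum fold change and 1 with a minimum of 1; leaving out each library gave 6 to 11 higher, 0 lower and medians of 0.23 to 0.30. On unfiltered TPM, MYCL (-2.903) and MYC (0.747) did not pass, and MYC (0.784) was under a minimum of 1. Between the control libraries, members called higher and lower numbered 4 and 27, 4 and 26, and 4 and 26 on the 3 TPM scales, with medians of -0.532, -0.535 and -0.532, and 7 members turned positive, of which UTP20 (0.035, 0.037 and 0.035), BOP1 and TBL3 had been called lower and NCL (0.544 on each), NOP56, RRP1 and NOC3L had not; without a minimum fold change 3 were higher, and with a minimum of 1 there were 0. Leaving out each library gave 1 higher, 44 to 46 lower and medians of -1.205 to -1.071. In C4-2B, FBL, NPM3, NOP10, NOB1 and TBL3, none of them called, took the other sign on the TPM scales. For the difference between lines a minimum of 1 left 0 called lower. Leaving out each library gave medians of -0.203 to -0.095, 2 to 9 lower and 0 to 1 higher (NOB1 without C4-2B MYCL replicate 1, FBL without knockdown replicate 1). Of the 153 other ribosome biogenesis genes, limma called 53, 55 and 42 lower in C4-2B and 8, 9 and 0 higher in NCI-H660 on the 3 TPM scales, and their NCI-H660 median was 0.107 without knockdown replicate 2. Mitochondrial ribosomal proteins called lower in C4-2B numbered 15 on each TPM scale and 6 without MYCL replicate 2, and cytoplasmic ones called higher in NCI-H660 numbered 5 without shControl replicate 2 and 4 without knockdown replicate 2. The cause of these changes was not tested. The replicate numbers did not pair the samples (correlation of same-numbered deviations 0.010 in C4-2B and 0.012 in NCI-H660), and with the replicate block 16 members were lower in C4-2B and 7 higher in NCI-H660. Calls in NCI-H660 rest on 2 libraries of 15177058 to 18362946 counts a group, and differences under 0.5 cannot be called.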
